A study of Mus musculus with 3 samples.

Results

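The transcripts of the phagocyte NADPH oxidase and of the superoxide dismutases were examined in mouse macrophages. The set holds 9 of the 55536 annotated genes that were quantified. They were chosen by name for what they do and not by their values. They are the membrane subunit genes Cybb and Cyba, the proton channel gene Hvcn1, the cytosolic subunit genes Ncf1 and Ncf4, the GTPase genes Rac1 and Rac2, and the dismutase genes Sod1 and Sod2. All 9 matched the tables by symbol and gene identifier. The cells were bone-marrow-derived macrophages, that is primary cells cultured from C57BL/6J mouse marrow, and the age and sex of the animals were not recorded. All of them were first exposed to Lipid A at 100 ng/ml for 12 h, kept without it for 12 h after washing, and exposed again to 100 ng/ml for 20 min. Lipid A is the membrane anchor of lipopolysaccharide, through which bacteria trigger TLR4. RNA from the cytosolic fraction, with ribosomal RNA depleted, was sequenced in 3 libraries that form 1 group. The labels number them as biological replicates 1, 2 and 3 but give a single donor identifier, so the errors below are a spread between these libraries that may be partly technical. No unstimulated or nuclear library was analysed here, and the values are therefore levels and not responses.

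The phagocyte oxidase makes superoxide from oxygen with electrons from NADPH. Its catalytic subunit is gp91phox, encoded by Cybb, which sits in the membrane as a complex with p22phox, encoded by Cyba. At rest the complex is inactive. On stimulation the cytosolic subunits, among them p47phox (Ncf1) and p40phox (Ncf4), and a Rac GTPase bound to GTP join it at the plasma membrane or the phagosome. The electrons carry charge across the membrane, and the voltage-gated proton channel Hv1, encoded by Hvcn1, lets protons follow. Superoxide dismutases convert superoxide to hydrogen peroxide and oxygen, Sod1 in the cytosol with copper and zinc, and Sod2 in mitochondria with manganese. Loss of CYBB, CYBA, NCF1 or NCF4 in humans causes chronic granulomatous disease. Sod2 is known as a target of NF-κB in inflammatory cells.

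Expected counts, the estimated reads per gene, summed over annotated genes to 32055937, 43616634 and 47864978 in replicates 1, 2 and 3. Protein-coding genes held between 27.4% and 32.7% of the TPM, a unit that divides reads by transcript length and scales every library to the same sum. The macrophage label was set against marker genes. All 9 macrophage markers reached 1 TPM in every library, led by Lyz2 at 3120 ± 176 TPM (SD, n = 3). Neutrophils also carry most of the oxidase, and 3 of 12 neutrophil markers reached 1 TPM, with S100a9 highest at 6.46 ± 3.16 TPM. The summed level of the 12 was 10.8 TPM in replicate 1, 13.1 TPM in replicate 2 and 19.1 TPM in replicate 3. Of the 12, only Ly6g and Retnlg had 0 counts in all 3 libraries. A count of 0 allows up to 3 reads, or at most 0.146 TPM for Ly6g and 0.167 TPM for Retnlg, for counting error only. Of 4 eosinophil markers none reached 1 TPM, and the highest, Ccr3, stood at 0.387 ± 0.111 TPM. The peroxidase gene Epx, which defines eosinophils, had 0 counts. Hvcn1 and Rac2 are also B-cell genes, and 1 of 7 B-cell markers reached 1 TPM, Cd79b at 1.70 ± 0.748 TPM, with 0 counts for Ebf1. None of 4 T- and NK-cell markers reached 1 TPM, and the highest, Lck, was at 0.0667 ± 0.0252 TPM. In these bulk samples a smaller number of cells of one type and less RNA per cell cannot be told apart.

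Every member was abundant. All 9 reached 1 TPM in every library, against 41.3% of the 22028 protein-coding genes, and the lowest percentile of any member in any library was 93.3 among coding genes, that of Hvcn1 in replicate 3. The members had a median of 129 TPM, against 8.46 TPM for the coding genes that reached 1 TPM in every library. Together they held 0.470%, 0.438% and 0.476% of the counts on coding genes in replicates 1, 2 and 3. By mean level the order was Cyba, Cybb, Rac2, Sod2, Ncf1, Rac1, Sod1, Ncf4 and Hvcn1. Cyba lay above Cybb, Rac1 above Sod1, and Ncf4 above Hvcn1 with no overlap between the libraries of the neighbours. The other neighbours overlapped. Of these, Ncf1 was above Rac1 and Sod1 above Ncf4 in 3 of 3 libraries, while Cybb with Rac2, Rac2 with Sod2, and Sod2 with Ncf1 changed places in 1 of them. The smallest p that an exact two-sided sign-flip test can give over 3 libraries is 0.25, so no test was made on single values.

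**Figure D1:**
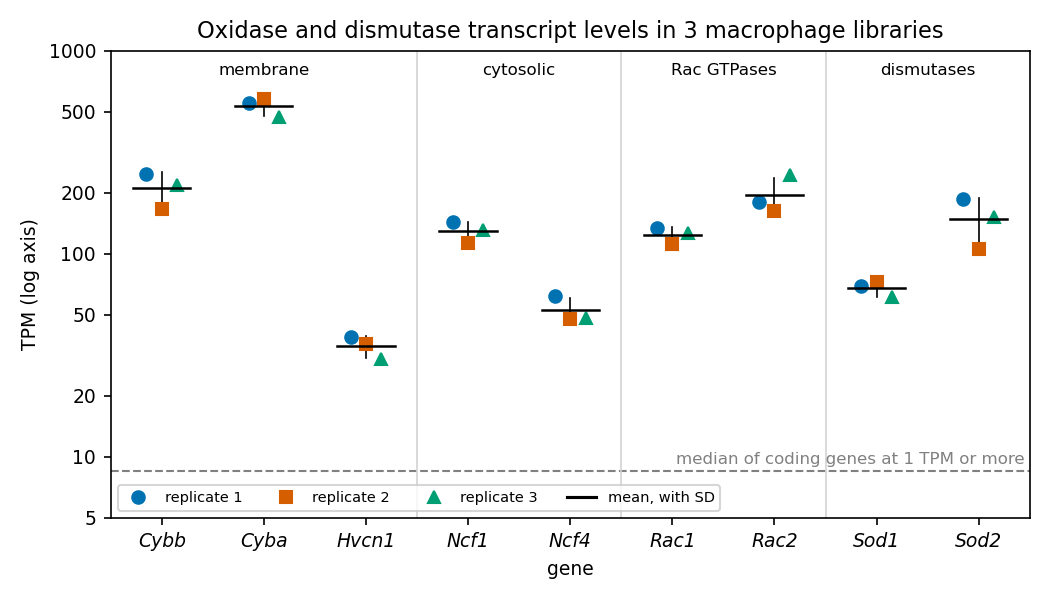
TPM of the 9 genes (log axis), grouped by role, with 1 point per library, a horizontal line at the mean and a vertical line for the SD (n = 3). Cyba lies highest at 473 to 576 TPM and Hvcn1 lowest at 30.4 to 39.0 TPM, and all points lie above the dashed line at 8.46 TPM, the median of coding genes that reached 1 TPM in every library.

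The membrane subunits were the 2 highest members by mean level. Cyba (chr8:122424776-122432930, minus strand, mouse build mm10 here and throughout) had 552 TPM in replicate 1, 576 TPM in replicate 2 and 473 TPM in replicate 3, a mean of 534 ± 53.9 TPM. It ranked between 46 and 60 among all coding genes. Cybb, on the X chromosome (chrX:9435252-9487771, minus strand), had 247 TPM in replicate 1, 166 TPM in replicate 2 and 219 TPM in replicate 3, a mean of 211 ± 41.3 TPM. Per length, the p22phox transcript thus exceeded the gp91phox transcript in 3 of 3 libraries, by 2.23-fold, 3.47-fold and 2.16-fold, or 1.35 ± 0.38 on the log2 scale. By reads, which are not divided by length, the order was turned round. The main Cyba transcript is 744 nt long and that of Cybb 4752 nt, and Cyba had 14014, 23805 and 20321 counts, against 55213, 60206 and 82262 counts for Cybb in replicates 1, 2 and 3. Each gene came almost wholly from 1 transcript, Cyba-201 with 96.3 ± 0.252% of the gene's TPM and Cybb-201 with 99.3 ± 0.666%. The gene Gm20388 overlaps all 8155 bases of Cyba on the other strand and was listed at 5.62, 12.8 and 14.98 TPM. Whether the counting used strand is not given in the sources used here, so reads could be split between these genes.

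The promoters of Cyba and Cybb differ in G and C content, and both are shown. Their part in the levels, or in the spread between libraries, was not tested. Each stretch runs from 250 bases before to 50 bases after the RefSeq transcription start (build GRCm38.p6). Capitals mark matches on either strand to short motifs. These were the GC box with the letters GGGCGG, the GAGGAA found in many sites of the myeloid factor PU.1, the promoter element TATAAA, the box named for its letters CCAAT, and the AP-1 type with the letters TGANTCA. No match overlapped another of a different motif. The Cybb promoter lies at chrX:9469275-9469574 and the Cyba promoter at chr8:122432891-122433190, both on the minus strand.
Cybb: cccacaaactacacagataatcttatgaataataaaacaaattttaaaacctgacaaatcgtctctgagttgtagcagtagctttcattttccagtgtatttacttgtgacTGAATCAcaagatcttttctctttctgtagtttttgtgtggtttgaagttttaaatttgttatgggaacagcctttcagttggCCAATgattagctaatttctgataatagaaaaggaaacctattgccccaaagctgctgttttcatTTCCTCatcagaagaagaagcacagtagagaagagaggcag
Cyba: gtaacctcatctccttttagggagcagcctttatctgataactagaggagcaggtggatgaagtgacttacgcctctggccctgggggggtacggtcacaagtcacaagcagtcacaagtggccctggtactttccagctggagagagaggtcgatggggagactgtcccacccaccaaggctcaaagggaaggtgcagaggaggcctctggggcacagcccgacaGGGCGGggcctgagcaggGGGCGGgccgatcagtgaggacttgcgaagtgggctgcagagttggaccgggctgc
The Cybb stretch is AT-rich, with 35.3% G and C and 1 CpG, a G and C content at percentile 4.61 of 27025 promoters. It holds 1 CCAAT box, 1 GAGGAA and 1 AP-1 type match. The Cyba stretch has 60.7% G and C and 9 CpGs, against a median of 52.7% and 7 CpGs over all promoters, and holds 2 GC boxes and no other match. GC boxes occur in 35.9% of all these promoters, GAGGAA in 28.3%, CCAAT in 37.9%, TATAAA in 14.2% and the AP-1 type in 7.93%. The matches describe these letters only. Of the 9 members, 5 are in the promoter table (Cybb, Cyba, Ncf1, Sod1 and Sod2).

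Hvcn1 (chr5:122206804-122242297, plus strand), the gene of the proton channel, was the lowest member. It had 39.0 TPM in replicate 1, 35.9 TPM in replicate 2 and 30.4 TPM in replicate 3, a mean of 35.1 ± 4.34 TPM, and its highest library lay below the lowest of Ncf4. Hvcn1-201 carried 92.1 ± 1.14% of it. Every annotated Hvcn1 transcript is classed as protein-coding, so the share of coding transcripts carries no information here. The last part of Hvcn1-201 shares 1233 bases with Tctn1, a gene on the other strand that was listed at 1.21, 0.960 and 1.44 TPM.

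The cytosolic subunits stood below the membrane pair. Ncf1 (chr5:134220053-134229625, minus strand), the organizer subunit whose phosphorylation starts assembly, had 143 TPM in replicate 1, 113 TPM in replicate 2 and 132 TPM in replicate 3, a mean of 129 ± 14.7 TPM. Relative to Cybb this was 0.577-fold, 0.684-fold and 0.600-fold, or -0.69 ± 0.13 on the log2 scale. Ncf4 (chr15:78244801-78262580, plus strand), whose product binds the phosphoinositide of phagosome membranes, had 61.6 TPM in replicate 1, 47.9 TPM in replicate 2 and 48.1 TPM in replicate 3, a mean of 52.5 ± 7.87 TPM. Ncf4 was thus at 0.432-fold, 0.422-fold and 0.365-fold of Ncf1, or -1.30 ± 0.13 on the log2 scale, and was the lower of the pair in 3 of 3 libraries. Ncf1-202 held 96.3 ± 0.626% of the Ncf1 abundance. The gene Gtf2ird2 overlaps Ncf1 by 4303 bases on the other strand and was listed at 1.24, 0.60 and 1.09 TPM. Ncf4 was more mixed. The coding transcript Ncf4-201 held 74.7 ± 6.05% of its TPM and 93.1% of its counts. Most of the remainder was assigned to short transcripts annotated as retained introns, Ncf4-204 (336 nt, 10.8 ± 8.81%) and Ncf4-206 (540 nt, 10.1 ± 6.27%), which rest on 17, 30 and 99 and on 160, 106 and 59 counts in replicates 1, 2 and 3. On coding transcripts alone the ratio of Ncf4 to Ncf1 was -1.66 ± 0.21 on the log2 scale.

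Both Rac genes were well above the typical coding gene. The size and the direction of their difference depended on how short transcripts are counted. Rac1, the ubiquitous member of the family (chr5:143503634-143528036, minus strand), had 134 TPM in replicate 1, 112 TPM in replicate 2 and 126.5 TPM in replicate 3, a mean of 124 ± 11.1 TPM. Rac2, the member restricted to blood cells and the main Rac of the neutrophil oxidase (chr15:78559167-78572783, minus strand), had 179 TPM in replicate 1, 162 TPM in replicate 2 and 243 TPM in replicate 3, a mean of 195 ± 42.5 TPM. Rac2 exceeded Rac1 by 1.34-fold, 1.45-fold and 1.92-fold, or 0.63 ± 0.28 on the log2 scale. Rac2 also had more counts, 18055, 23816 and 29434, against 9376, 12346 and 13855 for Rac1. Over the longest coding transcript of each gene, these counts gave a ratio of Rac2 to Rac1 of 1.48 ± 0.08 on the log2 scale. On coding transcripts alone the ratio was 1.62 ± 0.33. That setting kept Rac2 at a mean of 194 TPM, since the 254-nt transcript Rac2-203 is annotated as coding, and lowered Rac1 to 62.6 TPM. Without transcripts of an effective length under 200 nt, the ratio of Rac2 to Rac1 was -0.06 ± 0.04 on the log2 scale. This was close to equal levels, with Rac2 above Rac1 in 0 of 3 libraries. This cutoff lowered Rac2 to a mean of 119 TPM. It left Rac1 at 124 TPM, with most of its transcripts not annotated as coding still included. The effective length is the number of positions at which a sequenced fragment can start. These 3 ways of counting were chosen after the data were seen.

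The high Rac2 value of replicate 3 rested on a single short transcript. Rac2-203 is 254 nt long and was given 51.1, 57.2 and 118 TPM in replicates 1, 2 and 3 on 121, 237 and 487 counts. It made up 37.5 ± 10.3% of the TPM of the gene and 1.11% of its counts. The full-length Rac2-201 (3038 nt) held 98.8% of the counts, and its TPM, 128, 104 and 124 in replicates 1, 2 and 3, was not highest in replicate 3. For Rac1, the processed transcript Rac1-204 (585 nt) held 49.7 ± 2.18% of the TPM and 13.1% of the counts. It contains 459 of the 576 coding bases of Rac1-201. The coding transcripts Rac1-202 and Rac1-201 held 43.4 ± 2.29% and 6.96 ± 1.09% of the TPM, and 66.8% and 20.1% of the counts. The 3′ end of Rac1 overlaps the gene Daglb on the other strand by 2309 bases, and Daglb was listed at 6.04, 7.16 and 8.32 TPM.

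Rac1-202, the coding transcript with most Rac1 counts, carries a coding exon that Rac1-201 lacks. In humans the corresponding exon defines the splice form RAC1B, which exchanges nucleotide faster than RAC1. The exon has 57 bases, or 19 codons (chr5:143509597-143509653, minus strand), and is shown in capitals between 20 bases of the neighbouring coding exons in lower case, above the junction that replaces it in Rac1-201. The transcript sequences are those of GENCODE M21.
Rac1-202: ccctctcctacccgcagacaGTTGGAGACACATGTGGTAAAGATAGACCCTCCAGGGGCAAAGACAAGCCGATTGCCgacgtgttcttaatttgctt
Rac1-201: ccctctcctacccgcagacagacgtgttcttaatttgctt
The share of Rac1-202 cannot be read as use of this exon, because the annotated transcripts also end differently. The last exon has 3472 bases in Rac1-201 and 1624 bases in Rac1-202, so the estimated share rests on both features. No counts per exon or junction were used here.

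The coding sequences of Rac1-201 and Rac2-201 are both 576 bases long and were compared without gaps. They are identical at 444 positions (77.1%), with no identical run longer than 29 bases. The last 60 coding bases, which encode the tail that anchors each GTPase to membranes, are less alike than the rest, at 55% against 79.7%. They are shown because this tail, with a basic stretch in Rac1, is where the proteins are known to differ most. Capitals mark the differing bases, for Rac1 at chr5:143506978-143507037 and for Rac2 at chr15:78561911-78561970, both on the minus strand.
Rac1: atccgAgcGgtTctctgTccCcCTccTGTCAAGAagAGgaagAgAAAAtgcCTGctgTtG
Rac2: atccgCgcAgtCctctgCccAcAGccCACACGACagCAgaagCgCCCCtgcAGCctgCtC

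The mitochondrial dismutase gene Sod2 exceeded the cytosolic Sod1 at the level of the gene. Sod2 (chr17:13006846-13040063, plus strand) had 185 TPM in replicate 1, 106 TPM in replicate 2 and 152 TPM in replicate 3, a mean of 148 ± 40.0 TPM. Sod1 (chr16:90220754-90226329, plus strand) had 68.97 TPM in replicate 1, 72.7 TPM in replicate 2 and 60.95 TPM in replicate 3, a mean of 67.5 ± 5.99 TPM. The libraries of the pair did not overlap, and Sod2 was higher by 2.69-fold, 1.46-fold and 2.50-fold, or 1.10 ± 0.48 on the log2 scale. The direction turned round when only transcripts annotated as coding were counted, to -2.25 ± 0.49 on the log2 scale. It also turned round when all counts were divided by the length of the longest coding transcript, to -1.14 ± 0.47.

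Most of the Sod2 abundance was assigned to transcripts that are not annotated as coding. The processed transcript Sod2-207 (1138 nt) held 52.9 ± 1.47% of the TPM, the retained-intron transcript Sod2-204 (644 nt) 33.5 ± 4.04%, and the coding transcript Sod2-201 (5861 nt) 9.86 ± 1.19%. By counts Sod2-201 held 45.8% and Sod2-207 39.9%. Sod2-207 contains 643 of the 666 coding bases of Sod2-201 and ends in a last exon of 591 bases, against 5109 bases in Sod2-201. It lacks the annotated first coding exon. The tables do not show whether the reads on these common exons came from one transcript or the other. Sod1 was simple by comparison, with Sod1-201 (641 nt) at 99.9 ± 0.0896% of its TPM. The pseudogene Gm8566 is 97.8% identical to Sod1-201 over 465 bases. It was assigned 0, 5 and 2 counts, against 1429, 2435 and 2151 counts for Sod1. For Sod2, the minor transcript Sod2-202 (0.723% of TPM) is 98.3% identical to Rps6ka2 over 3110 bases. Rps6ka2 had 194, 380 and 331 counts. Sod2-202 is also 98.5% identical over 3108 bases to the non-coding gene AC166110.4, which had 0, 0 and 1 counts. The gene Scaf4 overlaps Sod1 by 650 bases on the other strand and had 1421, 1908 and 2246 counts.

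**Figure D2:**
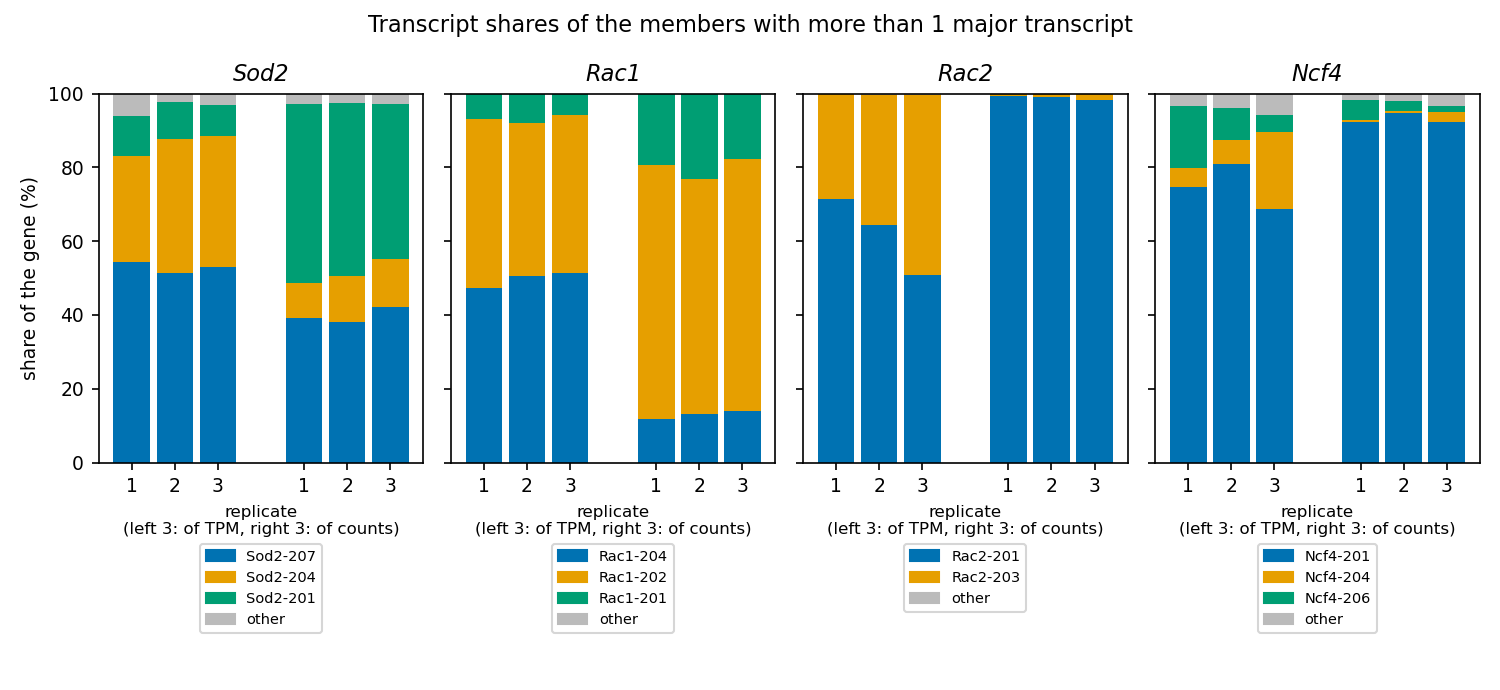
Share of each gene (%) assigned to its transcripts in replicates 1, 2 and 3, by TPM (left 3 bars) and by expected counts (right 3 bars). Shown are the 4 members with no transcript at 90% or more of TPM. Sod2-201 is 9.86% of TPM but 45.8% of counts on average, and Rac2-203 is 37.5% of TPM but 1.11% of counts.

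**Figure D3:**
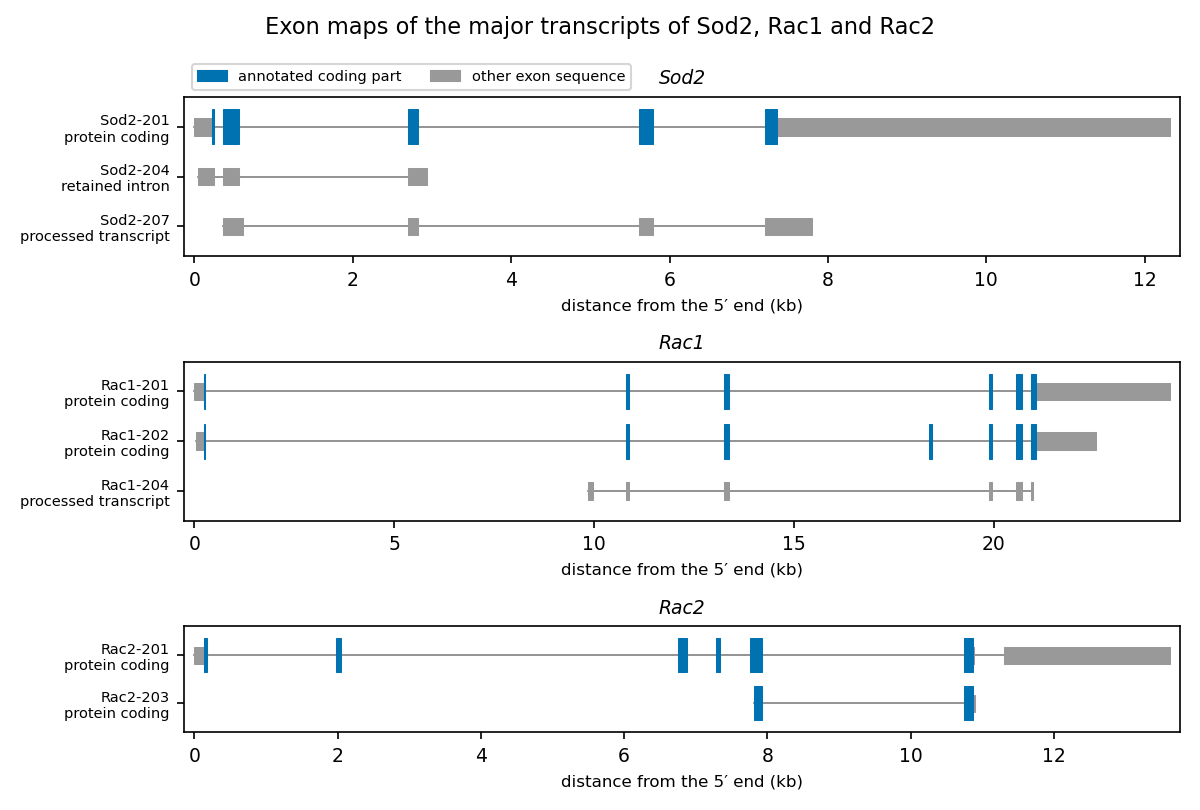
Exons of the transcripts discussed for Sod2, Rac1 and Rac2, drawn to scale as distance from the 5′ end (kb), with annotated coding parts as tall blue boxes and other exon sequence as low grey boxes. Sod2-207 covers the later coding exons of Sod2-201 and ends early in its 5109-base last exon, Rac1-202 has 1 coding exon more than Rac1-201, and Rac2-203 covers 254 bases around the last 2 coding exons and none of the 2319-base last exon of Rac2-201.

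The promoters of the dismutase genes are shown beside those of Cybb and Cyba. Their part in the levels was likewise not tested. The windows and capitals are those described for Cybb and Cyba. The Sod2 promoter lies at chr17:13007589-13007888 and the Sod1 promoter at chr16:90220512-90220811, both on the plus strand.
Sod2: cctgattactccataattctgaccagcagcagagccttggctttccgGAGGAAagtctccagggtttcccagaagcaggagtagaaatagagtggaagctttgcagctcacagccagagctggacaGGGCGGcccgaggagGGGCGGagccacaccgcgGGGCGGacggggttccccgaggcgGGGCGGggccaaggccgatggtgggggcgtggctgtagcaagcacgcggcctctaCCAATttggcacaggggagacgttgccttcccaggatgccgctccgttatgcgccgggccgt
Sod1: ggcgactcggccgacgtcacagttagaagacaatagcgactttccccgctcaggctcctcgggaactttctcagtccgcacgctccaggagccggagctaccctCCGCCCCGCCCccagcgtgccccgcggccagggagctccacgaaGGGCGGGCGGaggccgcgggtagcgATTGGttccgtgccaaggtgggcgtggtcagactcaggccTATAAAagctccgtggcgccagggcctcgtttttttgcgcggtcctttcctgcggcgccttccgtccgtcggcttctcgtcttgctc
Both are rich in G and C, with 64.3% and 21 CpGs for Sod2 and 66.7% and 34 CpGs for Sod1. Each holds 4 GC boxes and 1 CCAAT box. The Sod2 stretch has 1 GAGGAA in addition, and the Sod1 stretch 1 TATAAA. No AP-1 type match was present in either.

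The spread of the members between libraries was examined on counts scaled by TMM, edgeR's normalisation for library composition, as CPM (counts scaled to the same library size). Sod2 varied most, with 374, 235 and 300.4 CPM in replicates 1, 2 and 3, a ratio of highest to lowest of 1.59. Rac1 varied least, with 301, 279 and 286 and a ratio of 1.08. The ratios of the other members were 1.31 for Cybb, 1.29 for Ncf4, 1.28 for Cyba, 1.24 for Sod1, 1.23 for Hvcn1, 1.13 for Rac2 and 1.11 for Ncf1. The median gene of the 12372 tested had a ratio of 1.26, and 24.0% of them exceeded 1.5. Sod2, Cybb, Ncf1 and Rac1 were highest in replicate 1 and lowest in replicate 2. Cyba and Sod1 were highest in replicate 2 and lowest in replicate 3, and so was Hvcn1. Rac2 was highest in replicate 3, and Ncf4 in replicate 1.

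A fit in edgeR with no dispersion asked whether this spread exceeds counting noise, with Benjamini-Hochberg adjustment over all genes tested. It called 9 of 9 members at an adjusted p under 0.05, against 71.1% of all genes (8802 of 12372). The fit allows for no dispersion and every member had at least 1429 counts in every library, so small differences between libraries pass this test. A separate edgeR estimate of dispersion gave a coefficient of variation of 0.190 over all genes. That value, which edgeR terms biological, did not enter the test and may be partly technical here. The adjusted p of the edgeR fit was 1.26e-258 for Sod2 and 2.47e-07 for Rac1. Rac1 lost its call without the filter on low counts and in the second quantification, at 1.02-fold and 1.03-fold between the highest and lowest library. Ncf1 and Sod1 lost theirs without replicate 2, and Hvcn1 without replicate 3. The nuclear RNA Malat1 also differed between libraries, at 612, 156 and 637 TPM in replicates 1, 2 and 3, as did Neat1 at 24.8, 12.7 and 52.4 TPM. Their part in the spread of the members was not tested.

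**Figure D4:**
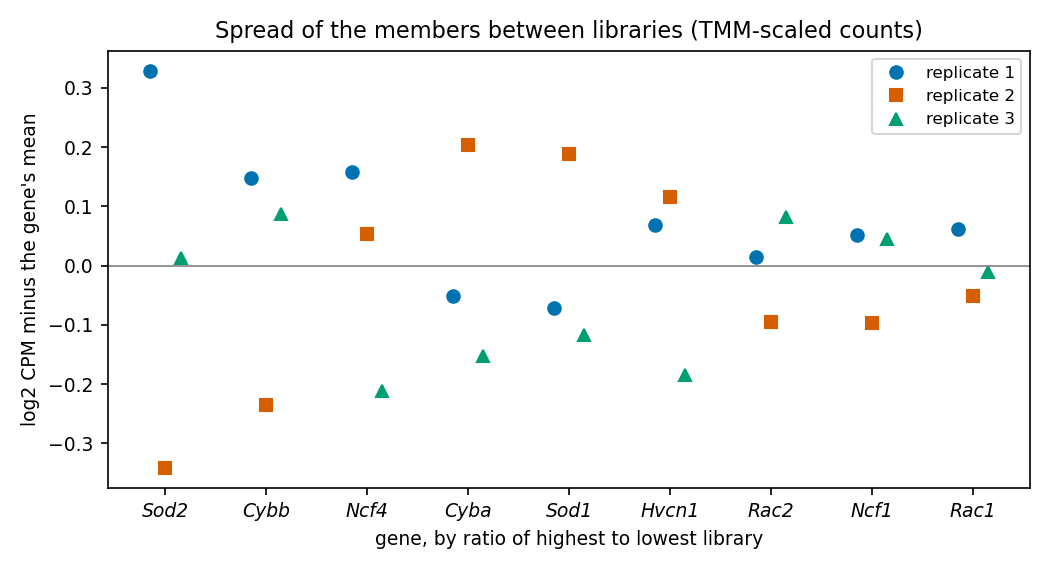
Log2 CPM (TMM-scaled) of each member in each library, minus the mean of that gene over the 3 libraries, with genes in order of the ratio of highest to lowest library. Replicate 2 is lowest for Sod2, Cybb, Rac2, Ncf1 and Rac1 and highest for Cyba, Sod1 and Hvcn1.

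The deposited tables hold a second quantification of the same libraries, made from the reads without the transcriptome alignments, which was summed per gene. Every member had a higher TPM in the first quantification, by between 1.62-fold for Rac2 (SD 0.277, n = 3) and 2.14-fold for Hvcn1 (SD 0.231). Over all genes the median ratio was 1.99, 1.82 and 2.28 in replicates 1, 2 and 3. At least 2-fold higher in the first quantification in every library were 0 of 9 members, against 7.02% of 10314 genes. Protein-coding genes held 16.4%, 15.2% and 12.1% of the TPM in the second quantification. With both rescaled over coding genes, the ratio of first to second lay between 0.799 for Rac2 and 1.06 for Hvcn1. It then reached 2-fold in either direction for 0 of 9 members, against 10.8% of 13904 genes. The transcripts named above for Sod2, Rac1 and Ncf4 held the same order of mean shares in both quantifications, and those of Rac2 did not. Rac2-203 had 49.7 ± 4.06% and Rac2-201 46.2 ± 4.18% of Rac2 in the second quantification, so that the short transcript led by mean. By library, Rac2-203 stood at 46.1%, 49.1% and 54.1% and Rac2-201 at 48.6%, 48.6% and 41.4% in replicates 1, 2 and 3.

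**Figure D5:**
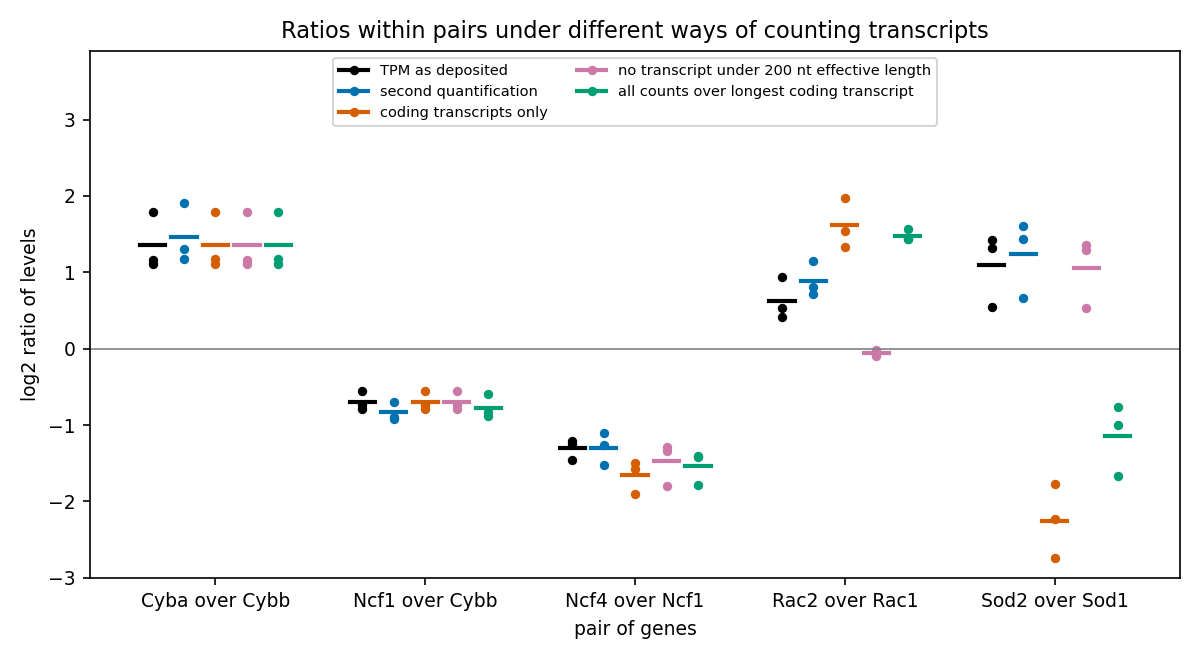
Log2 ratio of levels within 5 pairs of members in 3 libraries (points) with their mean (bar), for TPM as deposited, the second quantification and 3 other ways of counting transcripts. Cyba over Cybb, Ncf1 over Cybb and Ncf4 over Ncf1 keep their direction in all 5 settings, Rac2 over Rac1 is at -0.06 without transcripts of an effective length under 200 nt, and Sod2 over Sod1 is at -2.25 and -1.14 in the 2 settings based on coding transcripts.

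Other genes of the pathway were described by 5 lists, of which 41 of 53 genes reached 1 TPM in every library. The share to set beside each list is that of all protein-coding genes, 41.3% (9092 of 22028). The lists were chosen with earlier results of these data known. Among partners and homologues of the oxidase, 5 of 14 reached 1 TPM in every library. The highest was Cdc42, a GTPase related to Rac, at 244 ± 25.4 TPM, and Cybc1, a chaperone of the membrane pair, stood at 29.3 ± 6.08 TPM. The lowest 7 had 0 counts in all 3 libraries, namely the catalytic homologues Nox3, Nox4, Duox1 and Duox2, the activator Noxa1 and the maturation factors Duoxa1 and Duoxa2. The count of 0 allows at most 0.0546 TPM for Duoxa1, the highest such limit of the 7. Cybb was thus detected at 166 to 247 TPM in libraries where 4 of its catalytic homologues had no count. Nox1, the other catalytic homologue listed, had 3, 5 and 1 counts in replicates 1, 2 and 3 and was named after its values were seen.

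Regulators and targets of Rac reached 1 TPM in every library in 10 of 11 cases. They were led by Arhgdib at 248 ± 20.7 TPM, Arhgdia at 218 ± 6.60 TPM and the GTPase Rhog at 159 ± 15.2 TPM. The exchange factor Tiam1 was lowest at 0.937 ± 0.0115 TPM. Of 6 kinases that act on the cytosolic subunits, 5 reached 1 TPM. Protein kinase C delta, Prkcd, was at 66.2 ± 21 TPM, Prkcb at 44.1 ± 16.7 TPM and Akt1 at 37.9 ± 2.60 TPM, while Prkca stood at 0.370 ± 0.0721 TPM.

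Genes that remove superoxide and peroxide were present in 13 of 14 cases. The peroxiredoxin gene Prdx1 (304 ± 45.6 TPM), the glutathione peroxidase gene Gpx1 (264 ± 32.7 TPM) and Prdx5 (250 ± 79.9 TPM) all exceeded both dismutases in mean level. The extracellular dismutase Sod3 had 0, 0 and 1 counts in replicates 1, 2 and 3. All 8 receptors that trigger the burst reached 1 TPM, led by the Fc receptors Fcgr1 at 247 ± 65.3 TPM and Fcgr4 at 136 ± 50.3 TPM and by the integrin chain Itgb2 at 101 ± 9.82 TPM. The formyl peptide receptor Fpr1 was lowest, with 23.3, 6.15 and 12.1 TPM in replicates 1, 2 and 3. Of the 44 list genes that passed the count filter, 40 were called above counting noise by edgeR, against 71.1% of all genes.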

How the data were processed

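Total RNA of the cytosolic fraction was sequenced in 3 libraries of 1 group. The first quantification was run by the authors on transcriptome alignments, the second on the reads themselves, both for mm10 and GENCODE M21, per the deposited text. The first holds expected counts (estimated reads per gene, not whole numbers) and TPM in deposited gene tables, and in its deposited transcript tables a percent for each transcript of a gene. Of the second, the deposited transcript tables with estimated counts and TPM were added up by gene. Per the file headers, their columns are those of RSEM and kallisto. Which programs and which strand setting were used is not stated.

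Counts were rounded for edgeR 4.0.16, run under R 4.3.3 (filterByExpr, TMM, an intercept with dispersion 0, deviance against chi-square). DESeq2 1.42.0 gave alternative size factors. The remaining steps used Python 3.11.15, numpy 2.4.6, pandas 2.3.3 and scipy 1.17.1. Near-identical transcripts were sought with BLAST+ 2.17.0 (at least 95% identity over 200 bases). The 2 steps run over all genes were tested on simulated data. Promoters came from RefSeq (GRCm38.p6), and all other coordinates from GENCODE M21 (mm10, 1-based).

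The members and lists were chosen with earlier results of these data known. Named were all members, the 3 highest and the lowest gene of each pathway list, the highest marker and those at 0 counts, and transcripts holding 10% or more; 1 gene that this rule takes is not reported here. Depth ranged from 32055937 to 47864978 expected counts on genes. Limits for a count of 0 use 3 reads.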

Additional observations from a re-analysis of the deposited data

How the results depend on the processing

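No paired analysis was possible because the series holds 1 group. The median level of the members, 129 TPM, was 62.8 TPM in the second quantification, 440.0 TPM when rescaled over coding genes, 68.3 TPM on coding transcripts only and 68.3 TPM with all counts over the longest coding transcript. The log2 ratio of Cyba to Cybb turned round on counts (-1.78), and that of Sod2 to Sod1 on coding transcripts (-2.25) and over the longest coding transcript (-1.14). That of Rac2 to Rac1 was close to equal levels, with Rac1 slightly higher, without transcripts of an effective length under 200 nt (-0.061). Rac2 to Rac1 was 1.62 on coding transcripts, which include Rac2-203, 1.48 over the longest coding transcript and 0.99 on counts. Sod2 to Sod1 was 2.63 on counts. Ncf4 to Ncf1 kept its direction at -1.66 on coding transcripts, -1.47 without short transcripts, -1.54 over the longest coding transcript and -2.63 on counts, and Ncf1 to Cybb at -0.83 in the second quantification and -1.55 on counts. Counts are not divided by length, and the coding settings leave out or re-divide the non-coding transcripts. Of the 36 pairs that 9 members form, between 29 and 36 kept their order under the alternatives.

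Genes differing at least 2-fold between quantifications numbered 1001 of 10314, and 8946 of 10314 at 1.5-fold. They numbered 372 of 4284 above a mean of 10 TPM and 1504 of 13904 after rescaling over coding genes. Leaving out 1 library gave 1033 of 10131 genes without replicate 1, 5074 of 10465 without replicate 2 and 1067 of 10343 without replicate 3. The members called were 3 of 9 without replicate 2, the library with the smallest ratio between quantifications. They were 0 of 9 without replicate 1 and without replicate 3. The 1.5-fold rule called 8 of 9 members beside those 8946 of 10314 genes, so the count is near the share of all genes. Above counting noise were 6564 of 12556 genes and 9 members without replicate 1, 6822 of 12779 genes and 7 members without replicate 2, and 6340 of 12296 genes and 8 members without replicate 3. The adjusted p of edgeR for Rac1 ranged from 1.29e-10 without replicate 3 to 0.517 without the filter on low counts, for Ncf1 it reached 0.881 and for Sod1 0.569 without replicate 2, and for Hvcn1 0.412 without replicate 3. The cause was not tested. The levels of Rac2-203 and of the minor Ncf4 transcripts rest on few reads, and depth was not varied.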

Other observations

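The gene-level effective length that divides the Rac2 counts differed between libraries, at 2014, 1827 and 1456 nt in replicates 1, 2 and 3, while that of Cybb was 4462, 4522 and 4510 nt. The Rac2 CPM (TMM-scaled) were 580.0, 538 and 608.

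Among the oxidase homologues that were not at 0, Noxo1, the organizer of another oxidase, had 0.39, 0.24 and 0.16 TPM, and Rac3, another Rac gene, had 1.53, 1.17 and 1.44 TPM in replicates 1, 2 and 3. Both were named after their values were seen. So was Clec7a, the receptor for fungal glucan, at 19.8, 38.2 and 33.1 TPM, lowest in replicate 1, where Fpr1 was highest.

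The mean share of the retained-intron class was 22.3 ± 5.30% of TPM in Ncf4 and 36.5 ± 2.07% in Sod2, but 0.637 ± 0.679% in Cybb and 0.727 ± 0.241% in Ncf1 (SD, n = 3).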
